A study of Homo sapiens with 8 samples.

Results

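The genes examined here encode the serine- and arginine-rich (SR) proteins, their TRA2 relatives, the CLK and SRPK kinases that phosphorylate them, and the heterogeneous nuclear ribonucleoproteins (hnRNPs) with PTBP1. They were chosen by symbol and make up 35 of the 63677 genes in the count tables: 11 SR protein genes, 2 TRA2 genes, 4 CLK genes, 2 SRPK genes and 16 genes of hnRNPs and PTBP1. RNA was sequenced from JJN3 and H929, human multiple myeloma (MM) cell lines exposed for 24 h to the vehicle DMSO or to THZ1 at 50 nM, which covalently inhibits the transcriptional kinase CDK7. Each of the 4 groups (JJN3 DMSO, JJN3 THZ1, H929 DMSO and H929 THZ1) held 2 libraries, numbered 1 and 2 below. The sample labels name no other treatment, although the design text of the series speaks of harvest after a knockdown, which no sample label names. Each line is a single tumor-derived line, so that the libraries are samples of a line and not of patients. Nothing in the labels says that the 2 libraries of a group came from separate cultures, and the p-values therefore measure the spread between these libraries, which may be technical. Total counts on genes ranged from 17476443 to 19194371 per library.

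SR proteins bind exonic enhancers and recruit the spliceosome, while many hnRNPs bind silencers or introns and keep exons out, so that the balance between them is known to set alternative splicing. SRPKs phosphorylate the arginine-serine domain of SR proteins in the cytoplasm and CLKs do so in the nucleus, which controls their import and their release from nuclear speckles. Many of these genes limit their own expression through transcripts with a premature stop codon or a retained intron, and a count per gene does not separate such transcripts from productive mRNA.

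The identity of the libraries was examined before the genes were compared. FGFR3, which is activated by translocation in H929, had counts of 14117 and 13411 under the H929 THZ1 label, of 45 and 285 under the H929 DMSO label, and of 0 to 2 in JJN3. MAF, the translocation target of JJN3, had counts of 18006 and 16310 under the H929 DMSO label, of 2729 and 2942 under the H929 THZ1 label, and of 16305 and 16840 in JJN3 with DMSO. The lambda share of light-chain V counts was 99.99% and 97.96% under the H929 DMSO label, while the other H929 label had 0.212% and 0.211%. The libraries labelled H929 DMSO thus went against their label, and between the H929 labels the source of the cells and the treatment cannot be told apart. Values between the H929 labels are given for the libraries as labelled, after those for JJN3, whose fit did not use them. The summed level of 10 plasma cell markers was 3620 to 12900 CPM over the 8 libraries. For the marker sums in this paragraph, CPM are counts scaled to the total count of each library, without TMM adjustment. That of 4 B cell markers was at most 4.04 CPM with CD22 at 0 in all libraries, and that of 4 myeloid markers at most 1.07 CPM with MPO at 0. The 4 stromal and endothelial markers summed to at most 4.44 CPM with PECAM1 at 0. The 4 T and NK cell markers summed to 1.01 to 4.41 CPM outside the libraries labelled H929 THZ1, and to 35.6 and 36.2 CPM in these. There the sum was almost all CD3E, with counts of 640 and 650. CD3D had 0 and 0, CD2 had 6 and 6, and NKG7 had 10 and 5.

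To compare levels between genes, CPM, from here on scaled to the TMM-adjusted library size, were divided by the exonic length of each gene in kilobases. This length covers the exons of all annotated transcripts of a gene, so that the order depends on the annotation. CLK3 has 19697 bp of exonic length, against 1470 bp of coding sequence. By CPM alone CLK3 (45.9) lay above CLK4 (26.4) and SRSF8 (19.8 CPM) in JJN3 with DMSO. In JJN3 with DMSO the level per length ranged from 2.33 CPM per kb for CLK3 to 173 CPM per kb for HNRNPA2B1, a nuclear RNA binding protein that also sorts RNA for transport. HNRNPA2B1 was followed by HNRNPK, which binds C-rich RNA, at 146 CPM per kb, and by HNRNPC, which binds uridine tracts, at 124 CPM per kb. The next were PTBP1 at 97.4, HNRNPF at 96.0 and HNRNPUL1 at 95.0 CPM per kb, whose neighbouring levels lay closer together than the 2 libraries of each gene. Among the SR proteins the level per length was highest for SRSF2 (88.9), SRSF1 (84.9) and SRSF3 (77.6) and lowest for SRSF8 (4.61 CPM per kb). Among the kinases SRPK1 was at 54.7, CLK2 at 26.1, SRPK2 at 13.7, CLK1 at 13.3 and CLK4 at 3.33 CPM per kb, so that SRPK1 lay above SRSF6 (53.0) and CLK4 near the lower end of the 35 genes. After THZ1 the order changed among the called genes: SRPK2 reached 30.7 CPM per kb, the same level as SRSF1 (30.7 CPM per kb), and CLK1 (27.6) lay above CLK2 (13.5 CPM per kb).

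**Figure D1:**
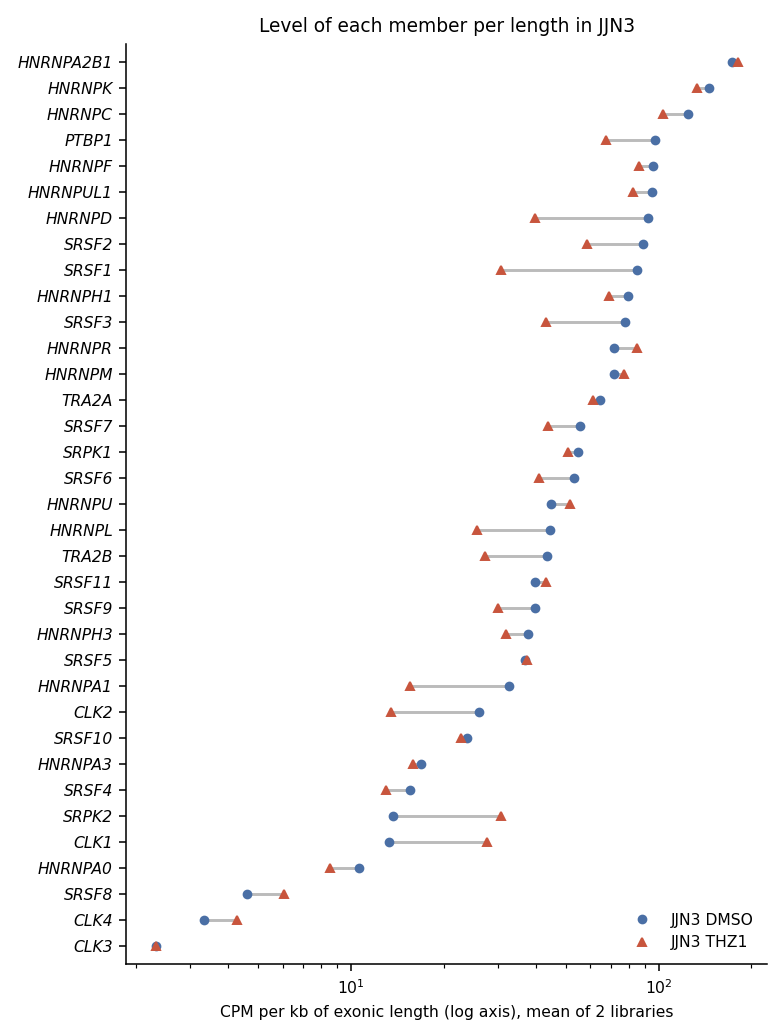
Level per length of the 35 genes in JJN3, as CPM per kb of exonic length on a log axis, ordered by the DMSO level. Exonic length covers the exons of all annotated transcripts of a gene. Blue circles are the mean of 2 DMSO libraries and red triangles the mean of 2 THZ1 libraries, and the grey line joins them; HNRNPA2B1 (173) and CLK3 (2.33 CPM per kb) are the ends of the DMSO range.

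All 35 genes passed the filter on low counts in JJN3. After THZ1, 9 were lower (25.7%), where 21.3% of the 13984 genes tested were lower, and 2 were higher (5.71%), where 20.6% of all genes tested were higher. A gene was called at an adjusted p under 0.05 and a log2 fold change beyond 0.5 (quasi-likelihood test of edgeR, Benjamini-Hochberg adjustment over all genes tested). The share of lower calls was thus near the background, and the share of higher calls was below it. The lower genes were SRSF1, SRSF2, SRSF3, TRA2B, CLK2, HNRNPA1, HNRNPD, HNRNPL and PTBP1, and the higher ones were CLK1 and SRPK2. Where libraries of called genes are said below not to overlap, this describes genes chosen by a call on the same libraries. The share of all genes tested that separate in this way was not counted. The median log2 fold change of the 35 genes was -0.20, against 0 over all genes tested, and 25 of them had a negative value. Without replicate 2 of JJN3 THZ1 the median of the 35 genes was -0.13. At the p threshold alone, 15 of the genes had a negative log2 fold change (42.9%, against 30.1% of all genes tested) and 4 a positive one (11.4%, against 28.9%). Scaling by total counts in place of TMM moved the median of all genes to -0.10 and that of the 35 genes to -0.30, and split the calls over all genes into 3639 lower and 2353 higher in place of 2972 and 2877. The 35 genes together held 1.48% and 1.49% of all counts in the DMSO libraries and 1.23% and 1.19% in the THZ1 libraries. These values are shares of the RNA sequenced, and in bulk RNA fewer cells of a type and less RNA per cell cannot be told apart.

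**Figure D2:**
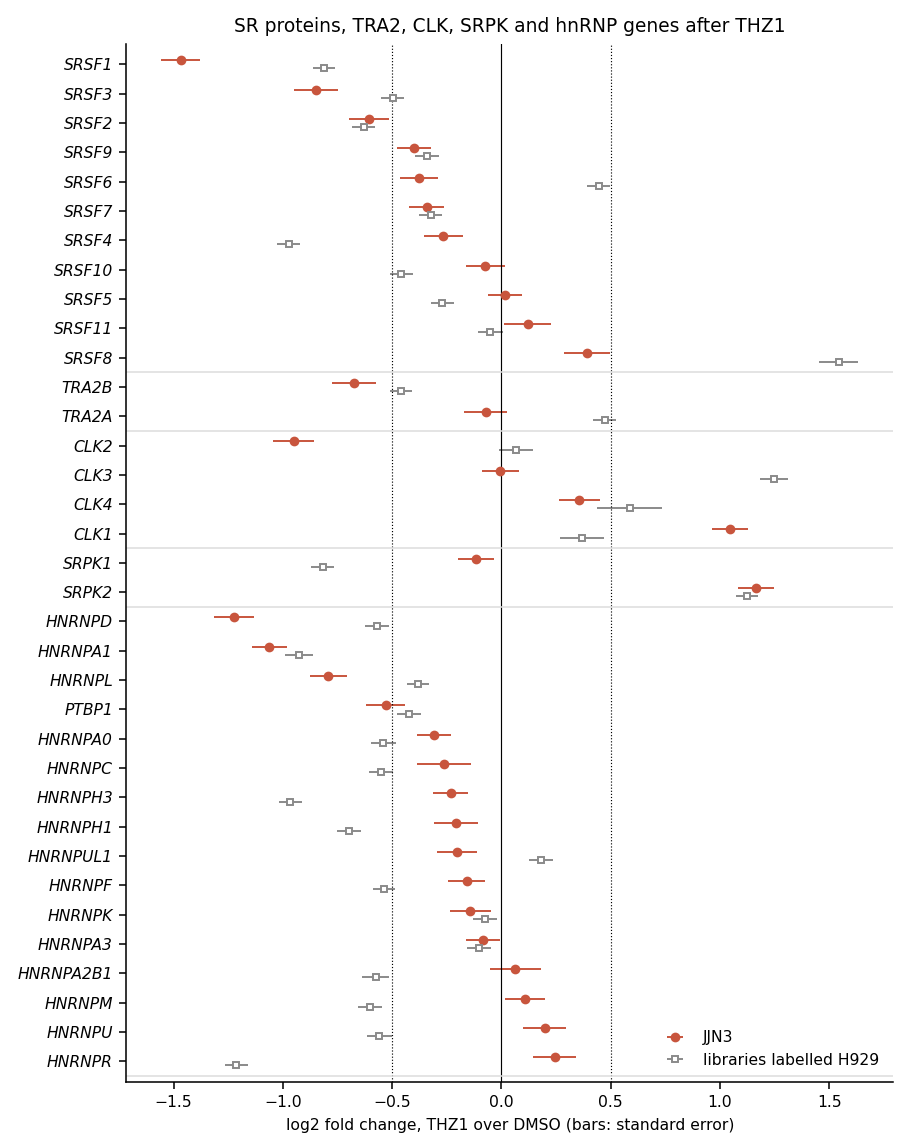
Log2 fold change after THZ1 for the 35 genes by family, with standard errors as bars. Red circles are JJN3 and grey open squares the libraries labelled H929, which differ in cell source as well as in treatment; dotted lines mark the limit of 0.5 in either direction. In JJN3 SRSF1 (-1.47) and SRPK2 (1.17) are the ends of the range.

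Of the 11 SR protein genes, 3 were lower in JJN3 (27.3%, near the 21.3% of all genes tested) and none was higher (against 20.6%). Their median log2 fold change was -0.34, and 8 of 11 values were negative. SRSF1, the founding member of the family and a splicing enhancer factor with oncogenic activity, had 503 and 479 CPM with DMSO and 171 and 184 CPM with THZ1. Both THZ1 libraries lay far below both DMSO libraries, and SRSF1 fell to 0.361 times its DMSO level (log2 fold change -1.47, SE 0.09, adjusted p = 8.82e-07), which was the lowest value among the 35 genes. SRSF1 lies on chr17:56078280-56084707 (hg19, minus strand), and 35.1% of its exonic length overlaps other genes in an annotation newer than the authors'. How much of its count this touches is not known. SRSF3, the smallest SR protein and an adaptor for mRNA export, had 527 and 577 CPM with DMSO and 285 and 329 CPM with THZ1. The groups did not overlap, and SRSF3 (chr6:36562130-36573377, plus strand) fell by 0.85 on the log2 scale (SE 0.10, adjusted p = 3.45e-05). SRSF2, also known as SC35 and linked to both exon inclusion and release of paused polymerase, had 250 and 279 CPM with DMSO and 182 and 166 CPM with THZ1. Its change was smaller, with a log2 fold change of -0.61 (SE 0.09, adjusted p = 0.000169). SRSF2 (chr17:74730197-74733415, minus strand) shares 27.7% of its exonic length with other genes, chiefly MFSD11 on the opposite strand, and no source used here states whether the counting used strand.

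Another 5 SR protein genes passed the p threshold but not the fold limit, 4 of them with negative values. These were SRSF9 at -0.40 (SE 0.08, adjusted p = 0.00123), SRSF6 at -0.38 (SE 0.09, adjusted p = 0.00322), SRSF7 at -0.34 (SE 0.08, adjusted p = 0.00343) and SRSF4 at -0.26 (SE 0.09, adjusted p = 0.0224). SRSF7 is, with SRSF3, an export adaptor. SRSF9 overlaps GATC and NRAV over 46.7% of its exonic length. SRSF8, a retrogene copy of SRSF2, was the only SR gene past the p threshold with a positive value, 0.39 (SE 0.10, adjusted p = 0.00732), from 19.98 and 19.68 CPM to 26.6 and 25.6 CPM. SRSF5 (0.02), SRSF10 (-0.07) and SRSF11 (0.12) did not pass it. SRSF4 no longer passed the p threshold without replicate 2 of JJN3 THZ1 (log2 fold change -0.16) or without either DMSO replicate, nor did SRSF7 without DMSO replicate 2, nor SRSF8 with DESeq2 or without either DMSO replicate. In SRSF11 the THZ1 libraries stood on either side of the DMSO libraries, at 405 and 326 CPM against 340 and 332 CPM. The SR genes together held 0.298% and 0.307% of all counts with DMSO and 0.206% and 0.203% with THZ1.

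The TRA2 proteins are SR-like factors that bind GAA-rich enhancers. TRA2B had 567 and 572 CPM with DMSO and 387 and 327 CPM with THZ1. Both THZ1 libraries were lower, and TRA2B (chr3:185632346-185655891, minus strand) had a log2 fold change of -0.67 (SE 0.10, adjusted p = 0.000174). Its paralog TRA2A had 221 and 232 CPM with DMSO and 237 and 194 CPM with THZ1. In TRA2A the groups overlapped, with a log2 fold change of -0.07 (SE 0.10, adjusted p = 0.56). The ratio of TRA2A to TRA2B counts was accordingly 0.389 and 0.405 with DMSO and 0.611 and 0.594 with THZ1.

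Within the CLK family, which phosphorylates SR proteins in the nucleus, CLK1 and CLK2 moved in opposite directions in JJN3. CLK1 had 65.1 and 71.3 CPM with DMSO and 140 and 142 CPM with THZ1. Both treated libraries were above both controls, and CLK1 (chr2:201717732-201729414, minus strand) rose 2.07-fold (log2 fold change 1.05, SE 0.08, adjusted p = 2.5e-06). CLK2 had 90.5 and 101 CPM with DMSO and 52.5 and 46.6 CPM with THZ1. Here the treated libraries were below the controls, and CLK2 (chr1:155232659-155248282, minus strand) fell to 0.517 times its DMSO level (log2 fold change -0.95, SE 0.09, adjusted p = 1.03e-05). CLK4, whose transcript is known to be regulated by intron retention like that of CLK1, had a log2 fold change of 0.36 (SE 0.10, adjusted p = 0.00742) and did not reach the fold limit, nor the p threshold with DESeq2, with total counts or without either DMSO replicate. CLK3 had 47.5 and 44.4 CPM with DMSO and 46.2 and 45.3 CPM with THZ1, with a log2 fold change of -0.00 (SE 0.09, adjusted p = 0.969). The sign for CLK3 was positive with size factors in place of TMM (0.01). The CLK genes together held 0.0236% and 0.0253% of all counts with DMSO and 0.0258% and 0.0263% with THZ1, close to each other, while the makeup of that sum changed. CLK1 made up 28.4% and 29.4% of the CLK counts with DMSO and 51.3% and 53.1% with THZ1. The share of CLK2 was 39.4% and 41.5% with DMSO and 19.3% and 17.4% with THZ1, so that the ratio of CLK1 to CLK2 counts went from 0.720 and 0.707 to 2.66 and 3.06.

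SRPK1 and SRPK2 phosphorylate SR proteins in the cytoplasm and so allow their import into the nucleus. SRPK2 had 109 and 103 CPM with DMSO and 244 and 232 CPM with THZ1. Both treated libraries lay above both controls, and SRPK2 (chr7:104751151-105039755, minus strand) rose 2.24-fold (log2 fold change 1.17, SE 0.08, adjusted p = 1.39e-06), the largest positive value among the 35 genes. SRPK1 had 368 and 365 CPM with DMSO and 339 and 338 CPM with THZ1. Its log2 fold change of -0.11 (SE 0.08, adjusted p = 0.252) did not pass the p threshold, and 28.1% of its exonic length overlaps LHFPL5 on the opposite strand. SRPK2 made up 22.9% and 22.0% of the counts on both SRPK genes with DMSO and 41.9% and 40.7% with THZ1.

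**Figure D3:**
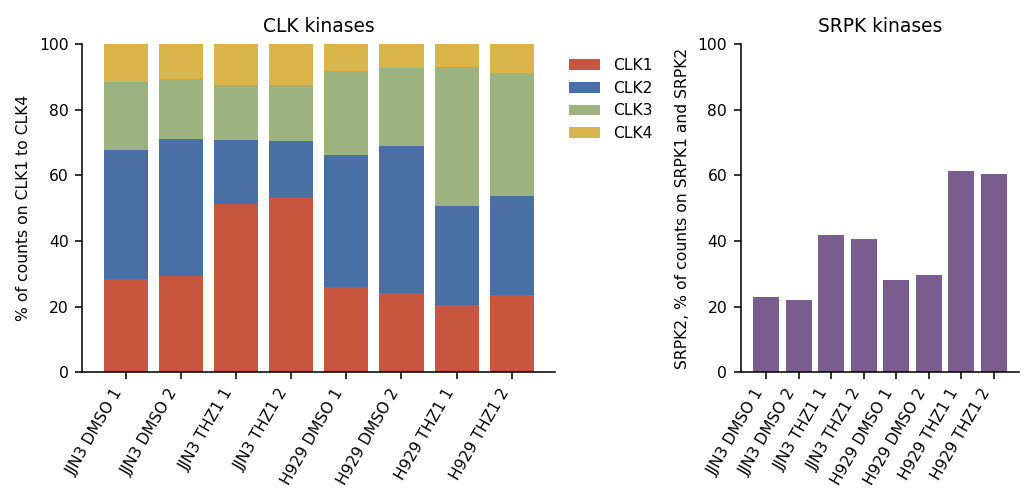
Makeup of the kinase counts in each of the 8 libraries, with the share of CLK1 to CLK4 in the counts on the 4 CLK genes (left, stacked bars, percent) and the share of SRPK2 in the counts on SRPK1 and SRPK2 (right, bars, percent). In JJN3, CLK1 and SRPK2 take a larger share in both THZ1 libraries (51.3% and 53.1%, 41.9% and 40.7%) than in both DMSO libraries; the libraries labelled H929 differ in cell source as well as in treatment.

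Of the 16 genes of hnRNPs and PTBP1, 4 were lower in JJN3, a share near the 21.3% of all genes tested. None was higher, where 20.6% of all genes tested were. Their median log2 fold change was -0.20, and 12 of 16 values were negative. HNRNPD, also known as AUF1, which binds AU-rich elements and controls mRNA decay, had 628 and 664 CPM with DMSO and 264 and 289 CPM with THZ1. Both treated libraries were well below the controls, and HNRNPD (chr4:83273651-83295656, minus strand) fell to 0.428 times its DMSO level (log2 fold change -1.22, SE 0.09, adjusted p = 2.15e-06). HNRNPA1, a splicing repressor that is known to act against SRSF1 at many exons, had 220 and 217 CPM with DMSO and 105 and 104 CPM with THZ1. The libraries of each group were nearly the same, and HNRNPA1 (chr12:54673977-54680872, plus strand) fell to 0.479 times its DMSO level (log2 fold change -1.06, SE 0.08, adjusted p = 1.77e-06). By symbol, 84 other gene entries were named as copies or relatives of HNRNPA1, and their sequences were not compared. They held 7.29% of the combined counts over the 8 libraries. Since the authors kept only uniquely mapped reads, the level of HNRNPA1 is uncertain. HNRNPL, which binds CA-rich RNA, had 285 and 289 CPM with DMSO and 174 and 158 CPM with THZ1. The groups stood apart, and HNRNPL (chr19:39327010-39342987, minus strand) fell by 0.79 on the log2 scale (SE 0.08, adjusted p = 1.72e-05). PTBP1, which binds polypyrimidine tracts and represses exons, had 717 and 748 CPM with DMSO and 505 and 510 CPM with THZ1. PTBP1 (chr19:797075-812327, plus strand) was just inside the fold limit, with a log2 fold change of -0.53 (SE 0.09, adjusted p = 0.000452).

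The other 12 hnRNP genes were not called in JJN3. HNRNPA0, which binds AU-rich RNA, at -0.31 (SE 0.08, adjusted p = 0.00508) and HNRNPH3 at -0.23 (SE 0.08, adjusted p = 0.0274) passed the p threshold alone, HNRNPA0 not without replicate 1 of JJN3 DMSO and HNRNPH3 not without either DMSO replicate. HNRNPF (-0.16) and HNRNPH1 (-0.21), which with HNRNPH3 bind runs of G, did not pass it. Nor did HNRNPC (-0.26), HNRNPK (-0.14), HNRNPUL1 (-0.20) and HNRNPA3 (-0.08), the last of which shares 54.8% of its exonic length with NFE2L2 and a microRNA gene. HNRNPC was the least even of them, with 943 and 867 CPM with DMSO and 850 and 659 CPM with THZ1. Positive values that did not pass the p threshold were found for HNRNPA2B1 (0.06), HNRNPM (0.11), HNRNPR (0.24) and HNRNPU (0.20), the last being a chromatin-bound scaffold protein. HNRNPA2B1, with 2218 and 2156 CPM with DMSO and 2442 and 2129 CPM with THZ1, held the most hnRNP counts, 22.1% and 21.8% with DMSO and 26.1% and 24.6% with THZ1. Its sign was negative when scaled by total counts (-0.04).

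**Figure D4:**
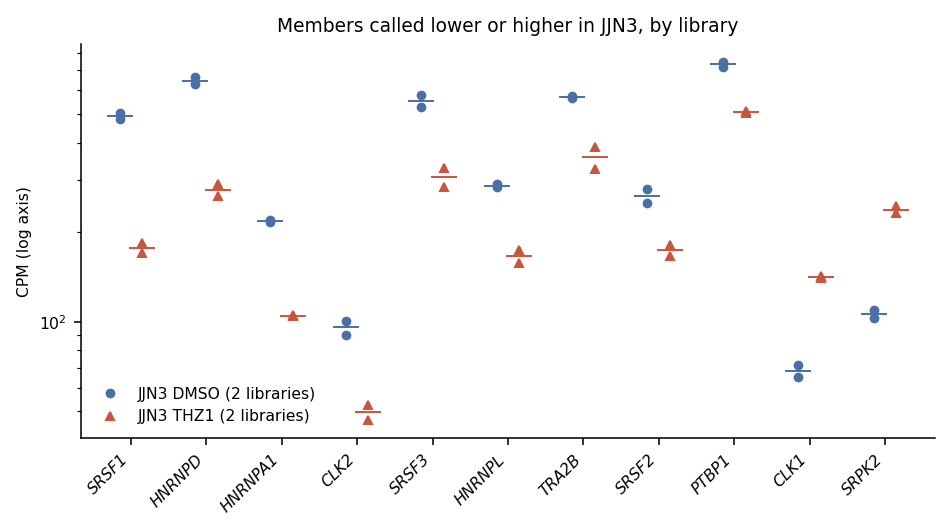
CPM of the 11 called genes in each JJN3 library, on a log axis, with blue circles for DMSO, red triangles for THZ1 and a short line at the mean of each 2 libraries. The THZ1 libraries of the 9 genes on the left are all below the DMSO libraries (for SRSF1, 171 and 184 against 503 and 479 CPM). Those of CLK1 and SRPK2 are above. The genes were chosen by their calls on these same libraries, so that the separation is no further evidence.

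Features of the genes that the choice by symbol did not use were then set beside the JJN3 values. The median genomic span of the 35 genes was 22006 bp, against 34577 bp for the 11590 protein-coding genes tested in JJN3. Transcripts annotated as targets of nonsense-mediated decay were listed for 31 of the 35 genes (88.6%), against 48.6% of those protein-coding genes. Transcripts with a retained intron were listed for 29 (82.9%), against 61.5%. The 35 genes also had more annotated transcripts, with a median of 15 against 8, and these shares were not adjusted for that. The 17 genes of shorter span (3219 to 20607 bp) had a median log2 fold change of -0.34 with 15 negative values, and the 18 of longer span (22006 to 288605 bp) had a median of -0.04 with 10 negative values. Across the 35 genes, Spearman's rho between span and log2 fold change was 0.457, and across all 11590 protein-coding genes it was 0.24; these are descriptions over genes that share the same 4 libraries. Over all protein-coding genes, the median span was 20938 bp for those called lower and 57913 bp for those called higher. Among the shorter genes, CLK1 (11683 bp, 1.05) and SRSF8 (4306 bp, 0.39) had positive values, and SRPK2, the longest of the 35 at 288605 bp, had the largest one.

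**Figure D5:**
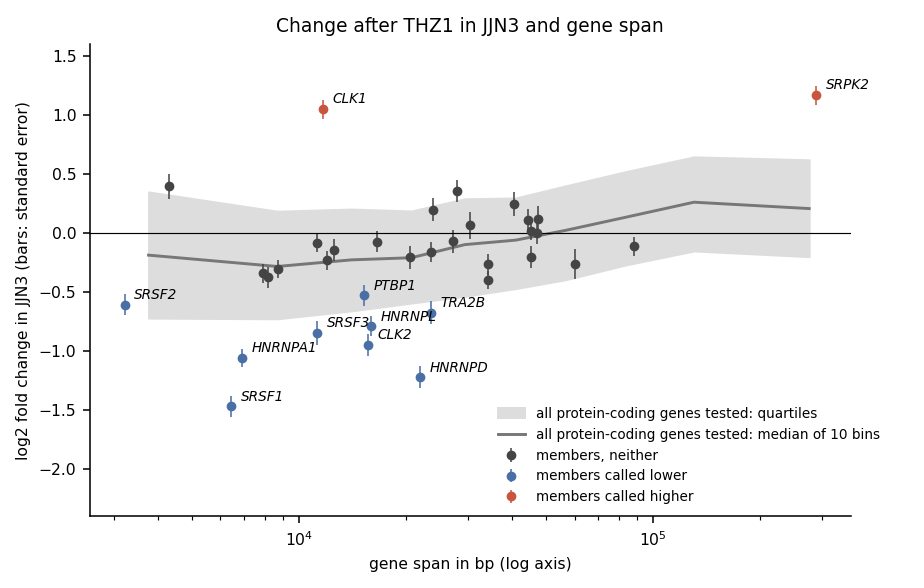
Log2 fold change after THZ1 in JJN3 (bars: standard error) against genomic span in bp on a log axis. Blue points are genes called lower, red points genes called higher and black points the other members of the 35, and the grey line and band are the median and quartiles of the 11590 protein-coding genes tested, in 10 bins of span. The 9 lower genes have a median span of 15253 bp, and SRPK2 stands at 288605 bp.

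The 250 bases upstream of the annotated start were available from RefSeq (GRCh38.p14) for 32 of the 35 genes, and 5 are shown as examples. These are SRSF1, SRSF3 and HNRNPD among the genes that fell in JJN3, and CLK1 and CLK2, which moved in opposite directions. The sequences are given 5′ to 3′ on the strand of the gene, with motif matches on either strand in capitals. They lie at chr17:58007247-58007496 (minus strand), chr6:36594112-36594361 (plus strand), chr4:82373992-82374241 (minus strand), chr2:200864659-200864908 (minus strand) and chr1:155273505-155273754 (minus strand).
SRSF1: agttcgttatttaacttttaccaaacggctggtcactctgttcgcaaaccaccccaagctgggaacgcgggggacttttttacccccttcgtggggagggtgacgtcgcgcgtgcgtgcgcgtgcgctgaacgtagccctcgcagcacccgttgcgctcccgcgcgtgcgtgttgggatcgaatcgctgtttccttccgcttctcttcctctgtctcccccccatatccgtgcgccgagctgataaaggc
SRSF3: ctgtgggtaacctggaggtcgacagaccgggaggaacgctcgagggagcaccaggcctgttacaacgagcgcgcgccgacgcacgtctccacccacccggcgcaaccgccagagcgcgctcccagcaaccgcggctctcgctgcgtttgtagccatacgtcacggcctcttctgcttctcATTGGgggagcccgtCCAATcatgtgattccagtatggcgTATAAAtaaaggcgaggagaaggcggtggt
HNRNPD: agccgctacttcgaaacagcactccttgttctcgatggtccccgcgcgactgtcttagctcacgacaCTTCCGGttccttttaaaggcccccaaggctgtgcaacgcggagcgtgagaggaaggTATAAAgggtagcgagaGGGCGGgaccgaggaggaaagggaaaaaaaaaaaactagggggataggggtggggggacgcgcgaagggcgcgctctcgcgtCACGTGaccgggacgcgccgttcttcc
CLK1: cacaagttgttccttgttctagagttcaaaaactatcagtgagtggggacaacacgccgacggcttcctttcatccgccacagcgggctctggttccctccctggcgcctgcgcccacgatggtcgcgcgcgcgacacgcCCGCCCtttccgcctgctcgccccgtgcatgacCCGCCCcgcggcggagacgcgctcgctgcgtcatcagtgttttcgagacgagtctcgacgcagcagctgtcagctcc
CLK2: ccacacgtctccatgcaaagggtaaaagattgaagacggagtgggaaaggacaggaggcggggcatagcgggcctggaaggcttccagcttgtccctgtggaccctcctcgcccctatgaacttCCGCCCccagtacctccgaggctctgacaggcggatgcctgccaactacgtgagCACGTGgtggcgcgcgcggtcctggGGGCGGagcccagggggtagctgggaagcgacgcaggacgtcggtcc

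The motifs searched on both strands were the CCAAT box (CCAAT), the GC box (GGGCGG), the TATA box (TATAAA), an ETS site (CCGGAAG), the E-box (CACGTG), the CRE (TGACGTCA) and the NRF1 core (GCGCATGCG), and none of these strings contains another. SRSF1 held no match in this window, nor did SRPK2, which had the largest rise in JJN3 and whose sequence is not shown. SRSF3 held a TATA box and a CCAAT box on each strand, while HNRNPD held a GC box, a TATA box, an ETS site and an E-box. CLK1 held 2 GC boxes, and CLK2 held 2 GC boxes and an E-box. A GC box was found for 19 of the 32 genes (59.4%), against 42.6% of 35116 RefSeq windows of the same length, and a CCAAT box for 13 (40.6%), against 32.0%. The 35116 windows were not limited to protein-coding genes or to genes tested here, while each of the 32 genes had a single window. The shares in this paragraph therefore compare unlike sets. The E-box was found for 6 (18.8%, against 6.34%), the TATA box for 4 (12.5%, against 10.7%) and the ETS site for 4 (12.5%, against 8.52%). The NRF1 core was found for SRSF10 alone (3.12%, against 1.64%) and the CRE for none (against 1.65%). The median GC content of the windows of the 32 genes was 65.0%, against 58.0% over all 35116 windows.

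Other genes of the same machinery were taken from 4 lists. Of 21 SR-related splicing proteins tested in JJN3, 2 were lower and 2 higher. U2AF1, the small subunit of the factor that recognizes the 3′ splice site, had a log2 fold change of -0.77 (SE 0.08, adjusted p = 1.49e-05) and LUC7L, a U1 snRNP associated protein, -0.56 (SE 0.11, adjusted p = 0.00115). The higher ones were SRRM2, a scaffold of nuclear speckles, at 0.68 (SE 0.11, adjusted p = 0.000242) and LUC7L3 at 0.64 (SE 0.09, adjusted p = 0.000157). Of 17 other hnRNP family genes, 5 were lower and 1 higher. HNRNPDL, a close relative of HNRNPD, had a log2 fold change of -1.45 (SE 0.09, adjusted p = 9.42e-07), and RBMX had -0.96 (SE 0.09, adjusted p = 5.71e-06). PTBP3, a paralog of PTBP1, was higher at 0.61 (SE 0.08, adjusted p = 8.17e-05). Against a background of 21.3% lower and 20.6% higher, the lower share was 9.52% in the SR-related list and 29.4% in the hnRNP list, and the higher share was 9.52% and 5.88%.

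In JJN3, 17 genes were tested from a list of kinases, phosphatases and an importer of SR proteins, with relatives of these kinases. Whether each of them acts on SR proteins was not tested. Of the 17 genes, 1 was lower (5.88%, against 21.3% of all genes) and 6 were higher (35.3%, against 20.6%). The kinases HIPK1 and HIPK3, relatives of the CLK and DYRK families, rose by 1.29 (SE 0.10, adjusted p = 2.1e-06) and 1.25 (SE 0.08, adjusted p = 1.19e-06) on the log2 scale. PPP1R8, a nuclear inhibitor of protein phosphatase 1, had -0.53 (SE 0.09, adjusted p = 0.000373). Of 20 other sequence-specific splicing regulators, 1 was lower and 4 were higher. CELF1, which binds GU-rich RNA, rose by 1.08 (SE 0.11, adjusted p = 1.25e-05) and QKI, a STAR family RNA binding protein, by 0.98 (SE 0.08, adjusted p = 3.83e-06). PUF60, which binds pyrimidine tracts with U2AF, had -0.62 (SE 0.09, adjusted p = 0.00011).

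Between the libraries labelled H929, whose source of cells and treatment cannot be told apart, 15 of the 35 genes were lower under the THZ1 label (42.9%, against 32.6% of 14863 genes tested) and 4 were higher (11.4%, against 33.1%). The median log2 fold change was -0.46, with 26 of 35 values negative, against 0.01 over all genes tested. The hnRNPs made up most of the lower genes, with 11 of 16 called (68.8%, against 32.6% of all genes tested) and a median of -0.55. HNRNPR, an hnRNP found in nucleus and cytoplasm, had 634 and 635 CPM in the libraries with the DMSO label and 273 and 274 CPM in those with the THZ1 label. The libraries under a label were nearly identical, and the log2 fold change was -1.21 (SE 0.05, adjusted p = 4.14e-12). SRSF4 (-0.97), HNRNPH3 (-0.97), HNRNPA1 (-0.93), SRPK1 (-0.82) and SRSF1 (-0.81) followed. SRSF8 had 14.9 and 14.1 CPM with the DMSO label and 41.0 and 43.7 CPM with the THZ1 label, with a log2 fold change of 1.54 (SE 0.09, adjusted p = 1.68e-10). CLK3 had 45.1 and 42.9 CPM against 104 and 105 CPM, with a log2 fold change of 1.25 (SE 0.06, adjusted p = 2.75e-11). SRPK2 had 117 and 119 CPM against 259 and 255 CPM, with a log2 fold change of 1.124 (SE 0.05, adjusted p = 9.13e-12). The treated label was higher without overlap in each of these genes, which were chosen by their calls on the same libraries. The remaining higher gene was CLK4 at 0.59 (SE 0.15, adjusted p = 0.00174), which was not called without replicate 2 of the THZ1 label (0.30) or without replicate 1 (0.63) or 2 (0.55) of the DMSO label.

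The other lower genes under the H929 labels had log2 fold changes between -0.70 for HNRNPH1 and -0.54 for HNRNPF, with SRSF2 (-0.63), HNRNPM (-0.60), HNRNPA2B1 (-0.57), HNRNPD (-0.57), HNRNPU (-0.56), HNRNPC (-0.55) and HNRNPA0 (-0.54) in between. HNRNPF and HNRNPA0 were no longer called without replicate 2 of the THZ1 label (-0.50 and -0.46), nor was HNRNPF without replicate 2 of the DMSO label (-0.50). With total counts both lost the call (-0.49 each), and TRA2A gained it (0.52), and with no filter CLK4 lost it (0.59). SRSF3 (-0.50), SRSF10 (-0.46), TRA2B (-0.46), PTBP1 (-0.42), HNRNPL (-0.38), SRSF9 (-0.34), SRSF7 (-0.32) and SRSF5 (-0.27) passed the p threshold alone. So did TRA2A (0.47), SRSF6 (0.45), CLK1 (0.37) and HNRNPUL1 (0.18), with positive values. Of these, SRSF3 was called without replicate 1 of the DMSO label (-0.51) or replicate 2 of the THZ1 label (-0.50), and TRA2A (0.50) and CLK1 (0.56) were called without replicate 1 of the THZ1 label. CLK2 (0.07), SRSF11 (-0.05), HNRNPK (-0.08) and HNRNPA3 (-0.10) did not. In all, 23 of the 35 genes had a negative value past the p threshold, where 40.9% of all genes tested did, and 8 a positive one, where 41.0% did. The related lists held 13 lower and 1 higher of 21 SR-related genes, and 6 and 3 of 17 hnRNP relatives. They held 4 and 5 of 18 kinases and partners, and 9 and 2 of 22 other regulators. In that order the lower shares were 61.9%, 35.3%, 22.2% and 40.9%, against 32.6% of all genes tested. The higher shares were 4.76%, 17.6%, 27.8% and 9.09%, against 33.1%.

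Side by side, the calls gave 4 genes lower in JJN3 and under the H929 THZ1 label (SRSF1, SRSF2, HNRNPA1 and HNRNPD), 1 higher in both (SRPK2) and none called in opposite directions. Of the 12787 genes tested in both comparisons, 10.1% were lower in both, 8.37% higher in both and 8.78% called in opposite directions. Neither comparison called 10 of the 35 genes (SRSF5, SRSF6, SRSF7, SRSF9, SRSF10, SRSF11, TRA2A, HNRNPA3, HNRNPK and HNRNPUL1), and 23.2% of those 12787 genes were called in neither. The difference in response between the labels was tested itself, as the interaction of line and treatment over all 8 libraries, with positive values where the H929 labels had the higher log2 fold change. Of the 35 genes, 15 passed in either direction (42.9%), a lower share than the 53.7% of 16122 genes tested. SRPK2, with log2 fold changes of 1.166 and 1.124, had an interaction of -0.03 (SE 0.10, adjusted p = 0.804). HNRNPR had the most negative value, -1.45 (SE 0.11, adjusted p = 8.27e-09), and CLK3 the most positive, 1.26 (SE 0.11, adjusted p = 3.32e-08). CLK2 (1.03, SE 0.13, adjusted p = 4.86e-06) and CLK1 (-0.67, SE 0.14, adjusted p = 0.000701) also differed. The opposite movement of these kinases in JJN3 was not seen between the H929 labels. There CLK1 (0.37) and CLK2 (0.07) both had positive values and neither was called. Under those labels CLK1 was 26.0% and 24.1% of the CLK counts with DMSO and 20.4% and 23.4% with THZ1, while CLK3 went from 25.5% and 23.6% to 42.3% and 37.4%. The share of SRPK2 in the SRPK counts was 28.1% and 29.5% with the DMSO label and 61.2% and 60.5% with the THZ1 label. Leaving out the libraries labelled H929 leaves no such comparison, and the part of cell source in these differences was not tested.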

How the data were processed

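The authors aligned single-end reads to hg19 with STAR 2.5.2a, kept uniquely mapped reads, and deposited raw counts per Ensembl gene from featureCounts, with replicates not pooled and the strand setting not given in the sources used here. They also deposited tables of their own DESeq2 1.12.4 comparisons (fold changes and p-values), of which only the gene symbols were used. Groups and replicate numbers came from the labels. The 35 genes and all lists were chosen with earlier results of these data known. Every one of the 35 is named; from each related list, up to the 2 lowest and the 2 highest calls in JJN3 are named if their mean log2 CPM was 3 or more.

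Counts were tested with edgeR 4.0.16 (R 4.3.3) with TMM scaling, filterByExpr, the quasi-likelihood test and Benjamini-Hochberg adjustment, within each line label and as an interaction over 8 libraries. The script was tested on simulated data. Calls needed a log2 fold change beyond 0.5 and an adjusted p under 0.05. The common variation between replicates (biological coefficient of variation) was 0.074 for JJN3 and 0.0432 for the H929 labels. The alternatives were DESeq2 1.42.0, other scalings and filters, other fold limits, the replicate block, a fit of all 8 libraries and leave-one-out fits. Spans, exonic lengths and overlaps came from GENCODE v44lift37 on GRCh37, which is newer than the authors' annotation. It matched 34 genes by ID and SRSF8 by symbol. Upstream windows came from RefSeq on GRCh38.p14. Protein features and transcript isoforms were not analysed here.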

Additional observations from a re-analysis of the deposited data

Results flagged for a closer look

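For 15 of the 35 genes the log2 fold change under the H929 labels differed from that in JJN3 by an edgeR interaction test (adjusted p under 0.05 and a difference beyond 0.5). This is 42.9% of them, below the 53.7% of 16122 genes tested, so that the count is no feature of these genes, which are given as values. The difference is the value under the H929 labels minus that in JJN3, and it holds the unlike source of the libraries labelled H929 DMSO and H929 THZ1, whose part was not tested. More negative values under the H929 labels were found for HNRNPR (-1.45), HNRNPU (-0.75), HNRNPH3 (-0.72), SRSF4 (-0.70), HNRNPM (-0.70), SRPK1 (-0.69), CLK1 (-0.67) and HNRNPA2B1 (-0.63). More positive values were found for TRA2A (0.56), HNRNPD (0.66), SRSF1 (0.67), SRSF6 (0.83), CLK2 (1.03), SRSF8 (1.16) and CLK3 (1.26). SRSF1 and HNRNPD were lower in both comparisons and differed in size, with -1.47 and -1.22 in JJN3 and -0.81 and -0.57 under the H929 labels. SRSF6 had opposite signs, -0.38 in JJN3 and 0.45 under the H929 labels.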

How the results depend on the processing

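Under the other tool, scalings, filters, block and samples in the fit, with the fold limit kept at 0.5, 28 of the 35 genes kept the sign of their log2 fold change and the side of the call in JJN3, and 27 did under the H929 labels. In JJN3, 8 further genes passed the p threshold alone, and 6 of them did not pass it under at least 1 of these alternatives. Without a fold limit the calls were 15 lower and 4 higher in JJN3 and 23 lower and 8 higher under the H929 labels. At a limit of 1, JJN3 had 3 lower and 2 higher genes. Under the H929 labels 1 gene was lower at that limit (HNRNPR), while SRSF8, CLK3 and SRPK2 were higher. There were 4 interactions at that limit. The median in JJN3 was -0.24 with no filter and -0.30 with total counts, and -0.23 to -0.13 when each library was left out in turn. Under the H929 labels it was -0.43 with DESeq2, -0.43 with its size factors and -0.41 with total counts, and -0.46 to -0.42 on leaving out a library. With DESeq2 the kinase and the regulator lists each had 2 lower genes in JJN3. The kinase list then had 5 higher genes of 18 (27.8%), in place of 6 of 17 (35.3%). Signs that reversed belonged to uncalled genes near 0. In JJN3 these were SRSF5 (DESeq2 -0.003, no filter -0.024, total counts -0.086, leave-one-out -0.013 to 0.047), CLK3 (size factors 0.012, filter of 1 CPM 0.014, leave-one-out -0.068 to 0.031) and HNRNPA2B1 (total counts -0.041, leave-one-out -0.041 to 0.162). On leaving out a library the sign also turned for SRSF10 (-0.169 to 0.018), SRSF11 (-0.048 to 0.271) and TRA2A (-0.224 to 0.068) in JJN3. Under the H929 labels it turned for SRSF11 (up to 0.042) and CLK2 (-0.037 to 0.183). In JJN3 SRSF9 passed the limit with total counts (-0.50). The cause of these shifts was not tested.

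Deviations of same-numbered libraries from their group means correlated at 0.003 in JJN3 and -0.012 under the H929 labels, so that the numbers do not pair the samples. With the replicate block there were 9 lower and 2 higher genes in JJN3, 15 lower and 4 higher under the H929 labels and 15 interactions, with medians of -0.20 and -0.46. With 2 libraries per group the spread rests on few degrees of freedom, and no pair of replicates agreed within counting noise.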
